A study of Arabidopsis thaliana with 9 samples.

Results

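The genes described here encode catalytic proteins of cellulose and related glucan synthesis in Arabidopsis thaliana. They are the 6 cellulose synthase-like D genes CSLD1 (AT2G33100), CSLD2 (AT5G16910), CSLD3 (AT3G03050), CSLD4 (AT4G38190), CSLD5 (AT1G02730) and CSLD6 (AT1G32180), and 4 cellulose synthase genes of the primary cell wall, CESA1 (AT4G32410), CESA2 (AT4G39350), CESA3 (AT5G05170) and CESA6 (AT5G64740). The 10 genes were taken by locus identifier from 27432 protein-coding genes on the 5 nuclear chromosomes. The set was chosen by the H3K4me3 peak lengths of CSLD5, which had been seen to lack a peak in atx1/2. The values of CSLD5 in atx1/2 against the other genotypes are therefore a description. Where the fit over all genes calls CSLD5 in atx1/2, that choice fixed the outcome, and it is not read as a test. No p is given for any of the 10 genes in atx1/2.

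The mark measured was H3K4me3, trimethylation of lysine 4 of histone H3, by ChIP-seq (sequencing of DNA recovered with an antibody to the mark) in whole 12-day-old seedlings grown in long days on sucrose medium. The 3 genotypes were wild-type Col-0, jmj28-2 and atx1/2, both mutants in the Col-0 background, with 2 H3K4me3 libraries each. JMJ28 encodes a protein with the JmjC domain of histone demethylases, and the products of ATX1 and ATX2 are H3K4 methyltransferases of the Trithorax type. The nature of the mutant alleles and the number of plants per library are not given in the sources used here, and nothing says that replicates came from separate cultures, so p-values reflect no more than the differences among these libraries, which may be technical.

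Cellulose synthases of the CESA family work in the plasma membrane as rosette-shaped complexes of 3 different subunits that extrude β-1,4-glucan chains. CESA1 and CESA3 are required subunits of the primary wall complex, and CESA6, with related genes such as CESA2, fills the remaining position. CSLD proteins resemble CESA proteins most closely and make cell wall glucan in tip-growing cells and at the cell plate of dividing cells. H3K4me3 typically marks the 5′ part of transcribed genes.

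Each library was deposited as a peak list, and the measure used for a gene was the bp of peak inside its window, the gene body with 500 bp on both sides. Lengths were compared between genotypes with limma, fitted over all genes on log2(bp + 200). A peak score was used only as its percentile among the peaks of the same list, where 100 is the highest. Lists held 14291 to 14493 nuclear peaks, and the lowest score in a list was 20.01 to 20.08, so a gene without a peak was one below that score. Lists give no read counts, and sequencing depth is unknown. The gene table used has no strand, so gene ends are called lower and higher by coordinate. Of the seedling genes RBCS1A, CAB2, UBQ10 and ACT2, all but CAB2 had a peak on the gene body in the 6 libraries. Of the pollen genes, AGP11 and AGP6 had a peak in the window in every library and VGD1 in none. In Col-0 replicate 1, both jmj28-2 libraries and atx1/2 replicate 2 the AGP11 peak ranked at the 99.7 to 99.9 width percentiles. Whether it was of AGP11 alone was not examined. Of the root hair genes, EXPA7, RHD6 and RSL4 had none and COW1 only a peak of the flank. Of the seed genes, OLEO1 had a peak on the body in all 6 libraries. CRU3 and SESA1 had peaks of the flank only, in 6 and 4 libraries.

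Of the 10 genes, 8 had an H3K4me3 peak in all 6 libraries, CSLD5 had one in every Col-0 and jmj28-2 library and in no atx1/2 library, and CSLD1 had no peak in any library. Over all protein-coding genes, 66.8% had a peak in all 6 libraries and 28.1% in none. The 4 CESA genes of the set had stronger peaks than its CSLD genes. The peak with the largest overlap with each CESA gene body lay between the 75.8 and the 97.6 score percentile over the 4 genes and 6 libraries, and those of CSLD genes lay between 7.16 and 67.8. These 2 ranges did not overlap.

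**Figure D1:**
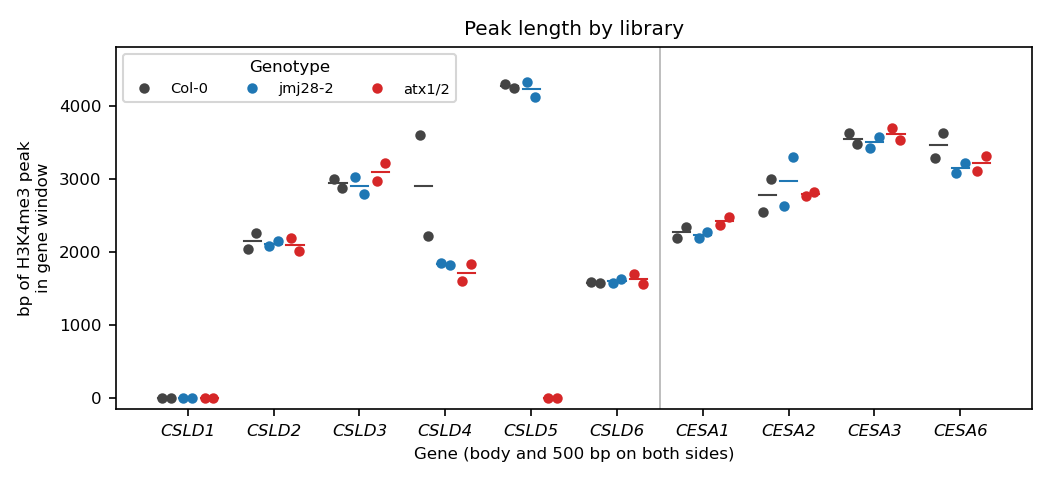
Points are the bp of H3K4me3 peak in the gene window in each library and short lines are genotype means (n = 2). CSLD5 has 4114 to 4328 bp in the 4 Col-0 and jmj28-2 libraries and 0 in both atx1/2 libraries, CSLD1 is at 0 throughout, and CSLD4 is longest in Col-0.

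CSLD5 is the family member active in dividing cells, where its protein accumulates at the forming cell plate. Its peak was 4292 bp in Col-0 replicate 1 (chromosome 1, 594603 to 598894, TAIR10) and 4246 bp in replicate 2 (594673 to 598918). In jmj28-2 it was 4328 bp (594595 to 598922) and 4114 bp (594806 to 598919). No atx1/2 library had a peak in the CSLD5 window. The 4 libraries with a peak were close to each other and far from the 2 without. The SD over the 2 replicates was 32.5 bp for Col-0 and 151 bp for jmj28-2.

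The CSLD5 peak was wide and weak. It covered 97.6% and 95.9% of the gene body in the Col-0 libraries and 97.8% and 92.7% in jmj28-2. Its width lay between the 98.3 and the 98.9 percentile of the list in these 4 libraries. Its score lay at only the 13.5 and 7.16 percentiles in Col-0 and the 12.2 and 9.0 percentiles in jmj28-2. Scores were 131.31 and 64.48 in Col-0 and 118.2 and 83.1 in jmj28-2, so with peaks of a score of 100 or more alone, 1 library of each of these genotypes kept it. In atx1/2 the signal, whatever its level, lay below the lowest scores of the lists, 20.04 and 20.02. Because whole seedlings were used, fewer cells carrying the mark and less of it per cell cannot be told apart.

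Cover of the whole gene body was rare for a gene of this size. Of 3352 protein-coding genes 3500 to 6500 bp long with a peak on the body in both Col-0 libraries, 27 (0.805%) were covered over at least 90% in both. These limits were chosen after the CSLD5 peak had been seen. By mean Col-0 score percentile CSLD5, at 10.3, was the second lowest of the 27, whose median was 83.5. TRM7 was the lowest, also at 10.3, and RPS2, a disease resistance gene, followed at 32.9. Every one of the 27 had a peak on the body in both jmj28-2 libraries, and 26 had one in both atx1/2 libraries. The exception was CSLD5, which was chosen for lacking a peak there, so nothing is read from this. TRM7, whose mean Col-0 percentile was like that of CSLD5, ranked at only 2.34 and 2.90 in atx1/2. It ranked at 16.3 and 4.31 in Col-0 and at 7.67 and 9.75 in jmj28-2. In atx1/2 its peak covered 96.2% and 68.2% of the body. These differences at TRM7 were not tested.

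Among genes with Col-0 peaks of similar rank, those without a peak in a mutant were counted. Of 1244 genes whose highest-scoring Col-0 peak on the body had a mean percentile of 5 to 15, 31 (2.49%) had no peak on the body in both atx1/2 libraries and 44 (3.54%) had none in both jmj28-2 libraries. CSLD5 is among the 1244 and the 31, and the limits of 5 and 15 lie around its own mean of 10.3. The share over genes of every rank was not computed, so nothing is read from these shares. Of all 27432 genes, 38 (0.139%) had a peak in both Col-0 and both jmj28-2 libraries and in neither atx1/2 library. CSLD5 had the longest mean peak of the 38, a position fixed in part by how it was chosen.

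**Figure D2:**
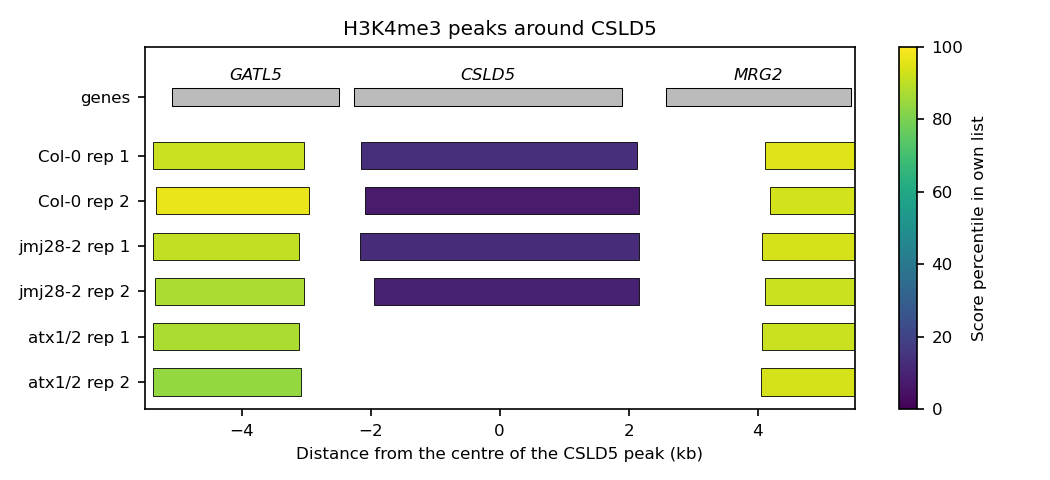
Bars are H3K4me3 peaks in each library against distance from the centre of the CSLD5 peak in kb, coloured by score percentile within the library's own list, with gene bodies in grey above. The CSLD5 peak is present in 4 libraries at percentiles of 7.16 to 13.5 and absent from both atx1/2 libraries, while the GATL5 and MRG2 peaks are present in all 6.

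Peaks on the neighbouring genes were present in every genotype. GATL5, which encodes a galacturonosyltransferase-like protein of cell wall polysaccharide synthesis, had peaks of 2338 and 2362 bp per Col-0 library, 2255 and 2319 bp per jmj28-2 library and 2264 and 2286 bp per atx1/2 library. Its atx1/2 peaks were at the 87.3 and 83.8 score percentiles, against 91.8 and 96.8 in Col-0 and 90.9 and 87.4 in jmj28-2. MRG2 (AT1G02740) on the other side, which encodes a reader of methylated histone H3, had 2850 and 2853 bp per Col-0 library, 2954 and 2850 bp per jmj28-2 library and 2946 and 2980 bp per atx1/2 library. No library had a peak that joined CSLD5 to either neighbour.

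Markers of dividing cells were measured beside CSLD5. PLE, which bundles microtubules in the phragmoplast of dividing cells, had 1933 and 3880 bp per Col-0 library, 1853 and 1556 bp per jmj28-2 library and none in atx1/2. It was called shorter in atx1/2 against Col-0 (limma adjusted p = 0.021) and jmj28-2 (limma adjusted p = 0.0493). No other of the 15 markers tested was called, and 0.825% and 0.387% of all tested genes were called shorter in these comparisons. Both p rest on atx1/2 libraries equal at 0 and may be too small, and PLE peak scores were only 43.89 to 90.79. KNOLLE, the cytokinesis-specific syntaxin, had a peak in 1 Col-0 library (1648 bp) and 1 jmj28-2 library (1481 bp) and in no atx1/2 library. CYCB1;1, a mitotic cyclin, had a peak in 1 Col-0 library (1894 bp) and 1 atx1/2 library (1751 bp). AUR1, an Aurora kinase, had a peak on its body in every library but Col-0 replicate 1. The summed bp of these 4 genes was 1978 and 9562 in Col-0, 3625 and 5495 in jmj28-2 and 2006 and 3750 in atx1/2, and in atx1/2 it came from AUR1 and CYCB1;1 alone. The genotypes overlapped in this sum but not in PLE. The peaks on these 4 gene bodies ranked at or below the 9.79 percentile of their lists in the libraries that had them. The part of these markers in the CSLD5 result was not tested.

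Over log2(bp of peak + 200) in the 6 libraries, the 5 genes with the smallest Euclidean distance to CSLD5 among 27431 others were SEND1, SBTI1.1, KCS3, PLE and AHL22, at 1.46, 2.02, 2.02, 2.04 and 2.18. SEND1 (AT3G48900), the nearest, encodes a structure-specific DNA endonuclease and had 2921 and 3001 bp per Col-0 library, 1727 and 3177 bp per jmj28-2 library and none in atx1/2. None of the 5 had a peak in atx1/2, and all were shorter than CSLD5 in Col-0. The distance included the atx1/2 libraries, which favours genes without a peak there, and CSLD5 had the longest mean peak of that pattern. Nothing is read from either. KCS3, a fatty acid elongase gene, had 1970 and 2062 bp per Col-0 library and 2005 and 1986 bp per jmj28-2 library.

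The root hair genes CSLD2 and CSLD3 had a peak of similar length in every genotype at their lower end. CSLD3 (KOJAK) is needed for root hair growth, and CSLD2 acts with it. CSLD2 had 2036 and 2255 bp per Col-0 library, 2074 and 2147 bp per jmj28-2 library and 2185 and 2008 bp per atx1/2 library, and the genotypes overlapped. Its peak, at 5560516 to 5562551 on chromosome 5 in Col-0 replicate 1, covered 37.0% to 42.3% of the body and ranked at the 27.6 to 38.2 score percentiles. CSLD3 had 2996 and 2877 bp per Col-0 library, 3025 and 2785 bp per jmj28-2 library and 2973 and 3219 bp per atx1/2 library, again overlapping, and 39.0% to 47.2% of its body was covered.

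CSLD3 bore 2 peaks in each library, at 686591 to 688728 and 691554 to 693162 on chromosome 3 in Col-0 replicate 1, and neither was its own alone. The peak at the lower end joined the neighbour AT3G03040 in all 6 libraries, and the one at the higher end joined AT3G03060. The lower peak ranked at the 50.3 and 42.2 percentiles in Col-0, 48.7 and 32.1 in jmj28-2, and 55.8 and 63.0 for atx1/2. Both atx1/2 values were above the other 4. Scores were not tested, here or elsewhere, and how many genes show such a difference in score percentile was not counted.

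The pollen tube genes CSLD1 and CSLD4 differed from each other. CSLD1 had no peak in its window in any library. CSLD4 had 3597 and 2216 bp per Col-0 library, 1849 and 1819 bp per jmj28-2 library and 1602 and 1828 bp per atx1/2 library. Both Col-0 libraries lay above all 4 mutant libraries, and the Col-0 libraries were far apart. Means were 2907 ± 977 bp (SD, n = 2) for Col-0, 1834 ± 21.2 bp for jmj28-2 and 1715 ± 160 bp for atx1/2.

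The difference at CSLD4 lay where the peak ended in the gene body. In all 6 libraries 1 peak lay over both the neighbouring gene FRS5 and the lower end of CSLD4. In Col-0 replicate 1 it ran from 17907965 to 17912928 on chromosome 4 and covered 78.2% of the CSLD4 body, and in replicate 2 it covered 43.3%. Cover was 34.1% and 33.3% with jmj28-2 and 27.8% and 33.5% with atx1/2. The score percentile went the other way, with 37.5 and 48.7 in Col-0, 66.4 and 56.1 in jmj28-2 and 67.8 and 56.5 in atx1/2. In limma, the log2 change of CSLD4 in jmj28-2 was -0.57 ± 0.24 (SE; adjusted p = 0.683) and did not pass the test. Without Col-0 replicate 1 it was -0.25, and without replicate 2 it was -0.90 (limma adjusted p = 0.613 and 0.104).

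CSLD6 had a single narrow peak at its higher end, at 11588861 to 11590447 on chromosome 1 in Col-0 replicate 1. It measured 1587 and 1568 bp per Col-0 library, 1577 and 1624 bp per jmj28-2 library and 1690 and 1558 bp per atx1/2 library, so the genotypes overlapped. Its score percentile was 20.7 and 15.8 in Col-0, 16.0 and 17.2 in jmj28-2 and 14.4 and 7.46 in atx1/2. Both atx1/2 values were below all the others, which was not tested, and how many genes show this was not counted. The peak covered 31.5% to 33.9% of the body.

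**Figure D3:**
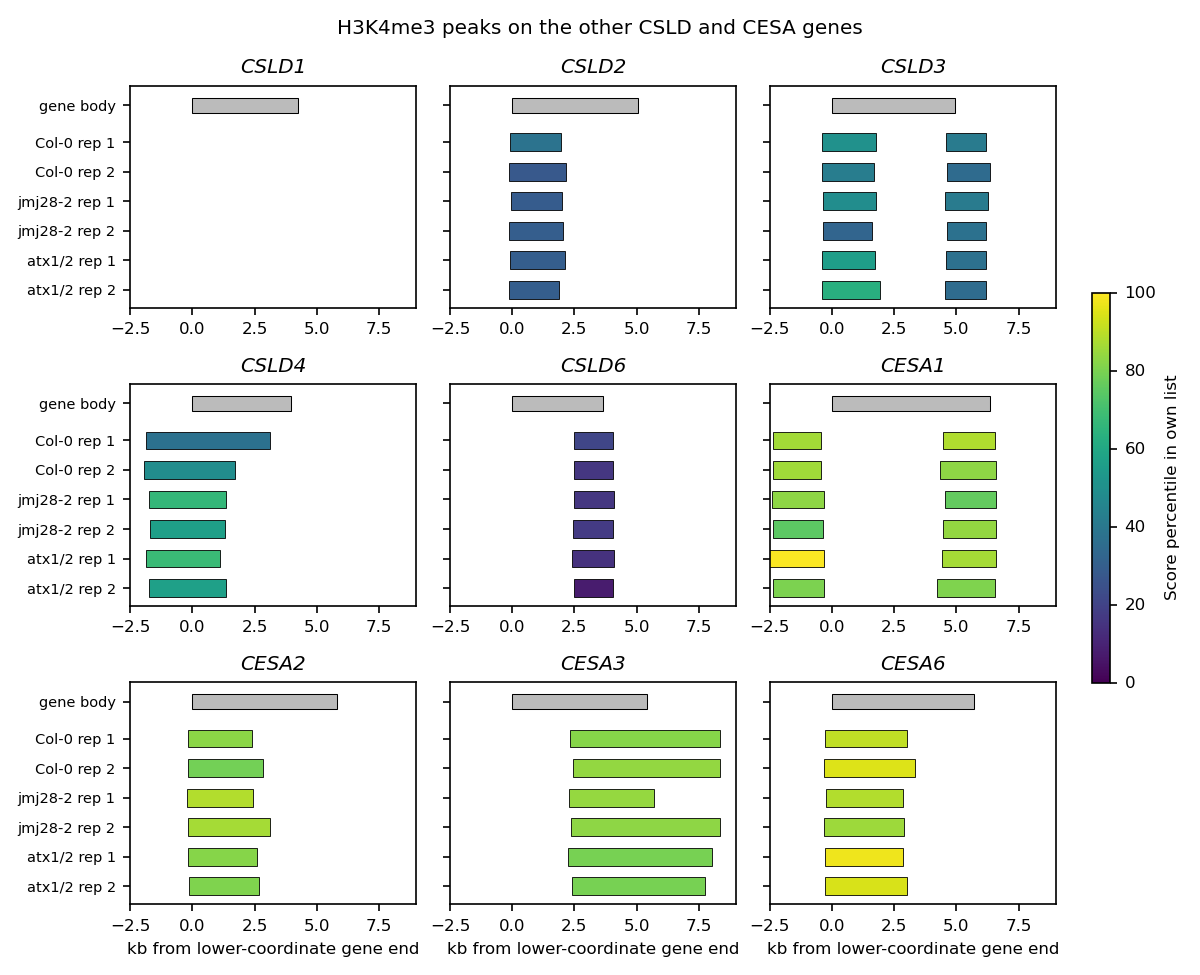
Bars are H3K4me3 peaks that touch the window of each of the 9 genes other than CSLD5, in kb from the lower-coordinate end of the gene (grey box), coloured by score percentile in the library's own list; bars are cut at the panel edge. The CSLD4 peak reaches farthest into the gene in Col-0, covering 78.2% and 43.3% of the body against at most 34.1% in the mutants, and the CESA3 peak stops short of the next gene in 1 jmj28-2 library.

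The 4 CESA genes kept long, high-ranking peaks in every genotype. CESA6 had 3289 and 3627 bp per Col-0 library, 3083 and 3209 bp per jmj28-2 library and 3110 and 3313 bp per atx1/2 library. Both jmj28-2 libraries were below both Col-0 libraries, and atx1/2 overlapped Col-0. The limma log2 change in jmj28-2 was -0.13 ± 0.061 (SE; adjusted p = 0.715). CESA6 peaks, at 25880745 to 25884033 on chromosome 5 in Col-0 replicate 1, ranked at the 90.4 and 94.8 percentiles in Col-0, 88.3 and 85.5 in jmj28-2 and 97.6 and 94.1 in atx1/2.

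CESA2, close in sequence to CESA6, had 2550 and 2999 bp per Col-0 library, 2633 and 3292 bp per jmj28-2 library and 2762 and 2814 bp per atx1/2 library, and the genotypes overlapped. In Col-0 and jmj28-2 its replicates were farther apart than any 2 genotype means. The CESA2 peak, at 18296212 to 18298761 on chromosome 4 in Col-0 replicate 1, ranked at the 78.7 to 88.6 score percentiles. The CESA2 and CESA6 peaks both lay at the lower gene end, covering 40.9% to 53.5% and 49.8% to 58.3% of the body.

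CESA1 had 2192 and 2338 bp per Col-0 library, 2184 and 2275 bp per jmj28-2 library and 2365 and 2477 bp per atx1/2 library. Both atx1/2 libraries were above the other 4. Part of this came from the flank, which also held the end of a peak of the neighbouring gene SHS1. On the CESA1 body alone, cover was 30.1% and 31.8% in Col-0, 28.5% and 30.0% in jmj28-2 and 30.6% and 33.4% in atx1/2, so atx1/2 overlapped Col-0. The peak on the body, at 15644931 to 15647047 on chromosome 4 in Col-0 replicate 1, lay at the higher end and ranked at the 75.8 to 88.1 score percentiles.

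CESA3 had 3621 and 3470 bp per Col-0 library, 3421 and 3572 bp per jmj28-2 library and 3693 and 3532 bp per atx1/2 library, with overlap between all genotypes. Its peak, at 1532438 to 1538482 on chromosome 5 in Col-0 replicate 1, ranked at the 79.4 to 84.0 score percentiles and at the 96.1 to 99.9 percentiles of width. In 5 of the 6 libraries it continued over the next gene, AT5G05180. In jmj28-2 replicate 1 it did not, and AT5G05180 had no peak there, while CESA3 itself kept 58.1% cover of its body against 54.7% to 58.8% in the other libraries. The broken join was in 1 of 2 jmj28-2 libraries and so was within the spread between replicates.

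**Figure D4:**
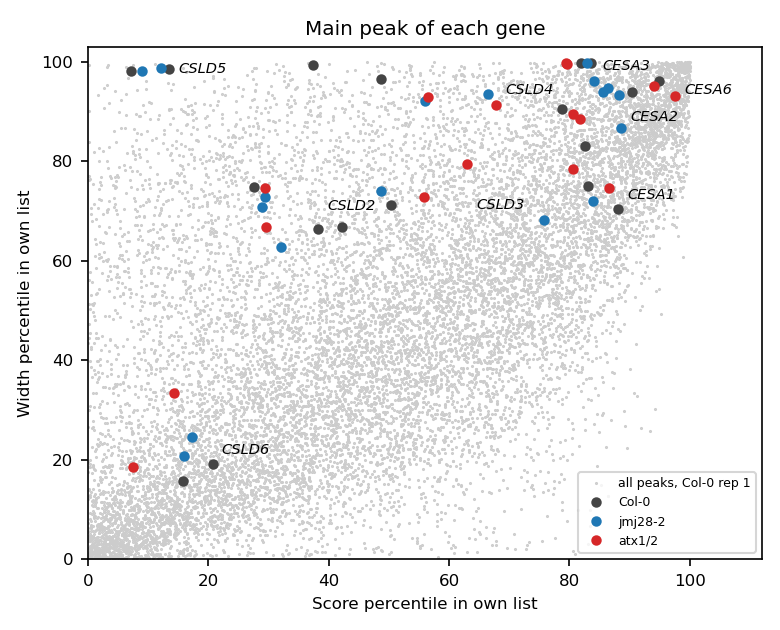
Each coloured point is the main peak on a CSLD or CESA gene body in one library, by score percentile (horizontal) and width percentile (vertical) within that library's list, over all peaks of Col-0 replicate 1 in grey. CSLD5 stands at width percentiles of 98.3 or more and score percentiles of 13.5 or less, whereas the CESA genes have score percentiles of 75.8 or more.

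In the limma fit across all genes, 9 of the 10 genes could be tested, since CSLD1 had no peak. In jmj28-2 against Col-0, 0 of the 9 passed the adjusted p threshold of 0.05, where 1.24% of 19385 tested genes did (0.892% shorter, 0.346% longer). Of the 9, 0 had an unadjusted limma p under 0.05, and the share of all tested genes with such a p was not counted. Adjusted p ran from 0.683 to 0.989. The median log2 change of the 9 genes was -0.02, the same as over all tested genes. In atx1/2 against Col-0, 0 of the 8 genes other than CSLD5 were called, where 1.60% of genes were (0.825% shorter, 0.779% longer). In atx1/2 against jmj28-2, 0 of these 8 were called, where 1.28% were (0.387% shorter, 0.892% longer). CSLD5 fell under the threshold in both, which its choice fixed in advance, so nothing is read from that. The median of the other 8 genes was 0.02 in both atx1/2 comparisons, against -0.01 and 0.01 over all tested genes.

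Libraries of 2 genotypes that did not overlap were common across the genome. In jmj28-2 against Col-0, 2 of 9 genes, CSLD4 and CESA6, were shorter without overlap, where 26.0% of tested genes were, and 0 were longer, where 10.1% were. The share of shorter genes is near the background. On the gene body alone CESA1 was shorter too, giving 3 of 9. The share of all genes was not computed for the body alone, so nothing is read from this count. In atx1/2 against Col-0, CSLD4 and CSLD5 were shorter without overlap, where 23.1% of genes were, and CESA1 was longer, where 13.7% were. On the gene body alone CESA1 was not longer without overlap. In atx1/2 against jmj28-2, CSLD5 was shorter, where 14.9% were, and CESA1 was longer, where 20.7% were. CSLD5 was chosen for its difference, so nothing is read from the counts that hold it.

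The other genes of cellulose and related glucan synthesis were taken as a list of 40. Of these, 28 had a peak in the window in all 6 libraries, 10 in none, and 2, CSLA1 and CSLB3, in some. Of 30 that could be tested, 1 passed as shorter and 0 as longer in jmj28-2 against Col-0 (limma, adjusted p threshold 0.05). In atx1/2 against Col-0, 0 passed in either direction. An unadjusted limma p under 0.05 was found for 5 genes in jmj28-2, 2 in atx1/2 and 4 between the mutants. The share of all tested genes with such a p was not counted, so nothing is read from these numbers. The median log2 change was -0.01 in both mutants. In atx1/2 against jmj28-2, 1 passed as longer. In each of the 2 comparisons with a call, 0.892% of all tested genes were called in the direction of that call.

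The gene that passed both times was CSLB3, of a cellulose synthase-like group whose product is not well defined. It had 1759 and 1883 bp per Col-0 library, no peak in jmj28-2 and 1794 and 1916 bp per atx1/2 library. Its limma adjusted p was 4.54e-05 against Col-0 and 4.26e-05 between the mutants. No jmj28-2 library had a peak there, and every library of the other genotypes did. These peaks were weak, at the 7.62 and 7.56 score percentiles in Col-0 and 0.383 and 4.32 in atx1/2. With every list trimmed to the length of the shortest, 14291 peaks, both calls were lost (limma adjusted p = 0.621 and 0.836), as the weaker atx1/2 peak dropped out. The lengths in Col-0 and jmj28-2 did not change there, and the SE that all 6 libraries share rose from 0.046 to 1.20 on the log2 scale. No CSLB3 peak reached a score of 100 in any library. Its neighbour and paralog CSLB4 had a peak in all 6 libraries, and how reads shared by similar copies were placed is not given in the sources used here.

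Among CESA genes outside the set, CESA5, a subunit related to CESA6, had peaks of 2364 to 2699 bp in all libraries, and CESA9 and CESA10 had none. Of the secondary wall subunits, CESA7 and CESA8 had none. CESA4 had 2369 and 2973 bp per Col-0 library, 2708 and 2822 bp per jmj28-2 library and 2420 and 2043 bp per atx1/2 library. Its log2 change of -0.24 ± 0.14 (SE) in atx1/2 did not pass the test (limma adjusted p = 0.749). The window also held peaks off the gene body in every library but atx1/2 replicate 1. On the body alone the change was -0.12 ± 0.059 (SE, limma adjusted p = 0.758). The peak with the largest overlap with the CESA4 body ranked at the 28.1 to 54.1 score percentiles. The other secondary wall genes listed, MYB46 and VND7, had no peak on the body in any library.

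All 10 genes for partners of the cellulose synthase complex had a peak in every library. They include KOR1, an endoglucanase, COB, a glycosylphosphatidylinositol-anchored protein, CSI1, which links the complex to microtubules, and CTL1, a chitinase-like protein. The largest log2 change among them in atx1/2 against Col-0 was at AT2G41770, with 2322 and 1829 bp per Col-0 library, 1832 and 1798 bp per jmj28-2 library and 1773 and 1767 bp per atx1/2 library. Its log2 change in atx1/2 was -0.20 ± 0.11 (SE; limma adjusted p = 0.744). Without Col-0 replicate 2 it was -0.36 (limma adjusted p = 0.0376), and without Col-0 replicate 1, the library with the longest peak, it was -0.04 (limma adjusted p = 0.733).

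The 5 CSLC genes, whose products make the xyloglucan backbone, and CSLE1 had a peak in every library, and the 3 CSLG genes in none. Of the 9 CSLA genes, which include glucomannan synthases, 5 had a peak on the body in every library. CSLA1 had only peaks of the flank, of 116 and 0 bp per Col-0 library, 141 and 125 bp per jmj28-2 library and 0 and 139 bp per atx1/2 library, and none of its changes passed the test. Over the 10 genes and the 40, CSLB3 and CSLD5 were the 2 with a peak in both libraries of a genotype and in neither library of another.

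**Figure D5:**
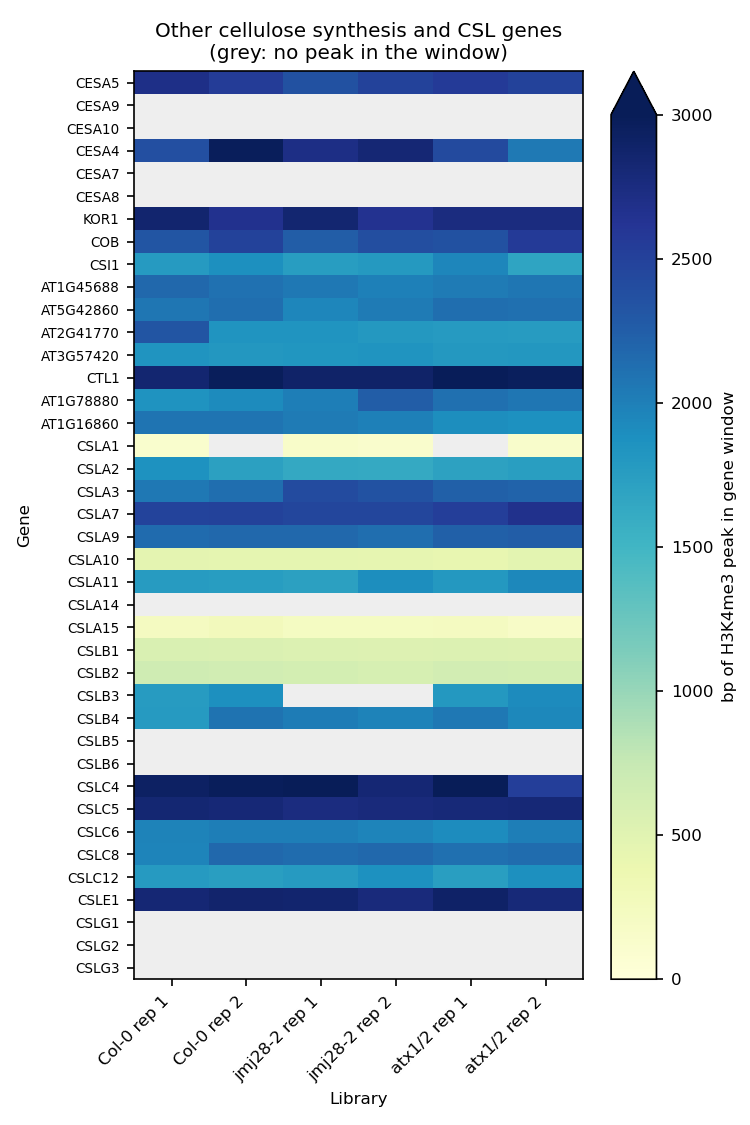
Colour gives the bp of H3K4me3 peak in the window of each of 40 other cellulose synthesis and cellulose synthase-like genes (rows) in each library (columns), with grey for no peak. CSLB3 is grey in both jmj28-2 libraries only, with 1759 to 1916 bp in the others, and 10 genes are grey throughout.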

How the data were processed

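For each H3K4me3 library the authors deposited 1 list of peaks, with start and end in bp and the authors' peak score. The submitters' processing notes name TAIR10 as the build, and deepTools 2.4.1, ChIPseeker, MACS 1.4 and Bowtie2 2.2.8 as tools, with no roles. The control used is not given in the sources used here. The 3 H3 samples were not analysed here.

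Peaks on chromosomes 1 to 5 were used, with starts shifted to count from 1. Gene bodies came from a RefSeq table of the assembly TAIR10.1, whose name differs from that of the files' build, so its coordinates are not printed. In 117 of 121 windows of 1000 kb, peaks matched these genes best at a shift under 400 bp. All 70 listed genes matched by locus. The bp of peak in the gene body and 500 bp on both sides was summed per library. Overlapping windows of neighbouring genes share peaks. A gene entered the test if at least 2 libraries had a peak there. The test was limma 3.58.1 (R 4.3.3) on log2(bp + 200), in 1 fit of all 6 libraries that left 3 residual degrees of freedom, with Benjamini-Hochberg adjustment over all genes tested, at 0.05. The log2 change understates changes of short peaks, and where a genotype had no peak it is left out. The adjusted p of such a gene rests on replicates that are equal at 0 and may be too small. The fit was also run on simulated data, whose outcome is not given here, so nothing is read from it. These data were built from genes with a peak in all 6 libraries, with normal noise and spreads shuffled among genes. Genes without a peak in a genotype were not covered. Python 3.11.15, pandas 2.3.3, numpy 2.4.6 and matplotlib 3.10.9 were used.

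The members and lists were chosen with earlier results of these data known. Named outside the 10 genes are list genes called in any comparison, otherwise the 2 with the largest change per comparison, the 5 genes nearest to CSLD5, and the markers. TRM7, RPS2, CSLB4, genes named only as present or absent, and the neighbouring genes were named after their values were seen. Alternatives changed the pseudocount (50 or 500 bp), the filter (1 library), the variance model, the libraries fitted, the peaks used, the flanks, the minimum overlap (200 bp) and the replicate block, or left out each library.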

Additional observations from a re-analysis of the deposited data

How the results depend on the processing

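The set was chosen for the difference of CSLD5 in atx1/2, so nothing is read from its calls there. Their count was 1 in both atx1/2 comparisons, and 0 with peaks of a score of 100 or more, as 1 Col-0 and 1 jmj28-2 peak fell below that score. In jmj28-2 against Col-0 the count was 0 throughout. Counts over all genes stayed within 1.5 times of 240, 311 and 248 (jmj28-2 and atx1/2 against Col-0, and atx1/2 against jmj28-2). The balance of shorter and longer calls moved, however. In jmj28-2 against Col-0 it was 173 to 67, at a score of 100 or more 160 to 117, and without Col-0 replicate 1 or 2 it was 146 to 137 or 150 to 122. In atx1/2 against Col-0 it was 160 to 151, with equal numbers of peaks per list 193 to 101, and at a score of 100 or more 123 to 217. Without atx1/2 replicate 1 or 2 it was 180 to 82 or 180 to 95, and without Col-0 replicate 1 or 2 it was 129 to 223 or 127 to 205. Between the mutants it was 75 to 173, with equal numbers 106 to 121, and without atx1/2 replicate 1 or 2 it was 102 to 110 or 92 to 108.

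With the replicate number of the labels as a block, 210, 275 and 212 genes were called, and the calls in the set were unchanged. Deviations of same-numbered libraries correlated at 0.0106, 0.0250 and 0.0102 across genes. This cannot show whether such libraries were grown or prepared together, which the sources used here do not say. Of the set's lengths, CSLD6 in atx1/2 was 1690 and 0 bp at a score of 100 or more. Depth is unknown, and a length does not measure the level of the mark.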
